A study of Mus musculus with 384 samples.

Results

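The livers of 98 F mice, the animals labelled female among 192 Diversity Outbred mice, were compared by diet: 48 had eaten a high fat diet and 50 had eaten chow. Members were the table columns whose mouse name begins with F, and the sex label of each was female. Diversity Outbred mice (J:DO stock) are bred by random mating from several inbred founder strains, so every animal carries its own mixture of founder alleles. All were labelled wild type and were killed at 26 weeks of age. The chow held 6% fat by weight and the high fat diet 22%, and each was given freely from weaning. The outbreeding generation label was G11L1 in 25 chow and 24 high fat F mice and G11L2 in 25 and 24. The 94 M mice (48 chow, 46 high fat) served only to ask where F mice differed. Liver polyadenylated RNA was sequenced with single-end reads of 100 bases in 2 technical repeats per mouse, and the deposited table gave 1 value per gene and mouse.

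The liver takes up dietary fat, makes fat from sugar, stores triglyceride in lipid droplets, burns fatty acids in mitochondria and peroxisomes, and exports lipid in lipoproteins. Cholesterol synthesis is held in check by sterols through the transcription factor SREBP2, and fatty acid synthesis is driven by SREBP1c and ChREBP. Mouse liver is also strongly sex-dimorphic: the pattern of growth hormone release sets the level of many cytochromes, sulfotransferases and major urinary proteins.

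Values are a normalized signal without a length correction, so levels are compared between mice and not between genes. A log2 change is the high fat mean minus the chow mean of log2(signal + 0.0629), given ± SE from a fit that allows for the generation label, and it understates the change of genes of low signal. A gene was called when limma's Benjamini-Hochberg adjusted p over the 14505 genes tested was under 0.05. The estimated depth was 11.9 to 17.0 M reads in chow and 9.80 to 16.7 M reads in high fat F mice. Hepatocyte genes took a median of 14.0% of the signal on chow and 13.3% on high fat. Pancreas transcripts exceeded 10 times the group median in 2 chow and 2 high fat F mice. Xist, the RNA of the inactive X chromosome, was at 0.361 in 1 chow mouse labelled F, against 88.2 to 312 in the other 97 and at most 2.47 in M mice. By Xist that library was unlike the other F mice, but Xist was the only sex check made, so its label was not tested further. Without it, 5196 genes were called, against 5203 with it.

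Diet changed the RNA level of 5203 of 14505 genes in F mice (35.9% of genes tested). Of these, 1591 were higher on high fat (11.0%) and 3612 were lower (24.9%). Most changes were small: 483 genes were called with at least a 1.5-fold change (3.33%), 256 of them higher and 227 lower. The median change over all genes was -0.04. The balance of higher and lower calls depended on the scaling, since 30.6% of calls were higher with the deposited values and 51.2% after median-of-ratios rescaling (2420 higher, 2307 lower). Within 1 generation label, 2526 genes were called in G11L1 mice (768 higher, 1758 lower) and 2932 in G11L2 mice (864 higher, 2068 lower). In 0 genes did the signals of the 2 diets have no overlap between mice. The counts of list members below are to be read against the shares called higher and lower in the same setting: 11.0% and 24.9% with the deposited values, 16.7% and 15.9% with median-of-ratios scaled values, and 15.5% and 16.4% with quantile-normalized ones. Coat labels differed by diet: 31 agouti, 13 black and 5 white F mice on chow, and 33, 4 and 9 on high fat. The few F mice of other coats were 1 agouti blaze on chow and 1 buff and 1 red on high fat. With coat colour added, in agouti, black and white mice only, the shares were 10.4% and 22.1%. Without the 10 mice least alike to the others they were 9.39% and 22.3%.

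A desaturase, a zinc importer, a sulfotransferase and a cytochrome show the range of the response. Scd1 (ENSMUSG00000037071, chr19:44394455-44407879 in GRCm38), the desaturase that makes monounsaturated fatty acids, had a signal of 34.4 to 5647 on chow (median 746) and 540.3 to 8468 on high fat (median 3149). The ranges overlapped widely, yet 46 of 48 high fat mice were above the chow median. Scd1 rose by 2.21 ± 0.25 (adjusted p = 9.88e-12). Slc39a5 (ENSMUSG00000039878, chr10:128395931-128401229), a zinc importer of the basolateral membrane, ran from 0.0118 to 2.76 on chow (median 0.223) and from 0.217 to 14.4 on high fat (median 2.42). It was above the chow median in 47 of 48 high fat mice, and its change was 2.77 ± 0.27 (adjusted p = 2.6e-14).

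Sult5a1 (ENSMUSG00000000739, chr8:123140192-123158315), a cytosolic sulfotransferase, was the most lowered gene named here. Its signal was 0.0337 to 14.5 on chow (median 5.25) and 0 to 13.9 on high fat (median 0.219), and 46 of 48 high fat mice were below the chow median. The change was -3.38 ± 0.33 (adjusted p = 2.9e-14). Cyp3a11 (ENSMUSG00000056035, chr5:145854426-145879964), a main drug-metabolizing cytochrome, ran from 9.55 to 1099 on chow (median 219.7) and from 54.4 to 1128 on high fat (median 575). It was above the chow median in 45 of 48 high fat mice and rose by 1.43 ± 0.24 (adjusted p = 1.07e-06). The high fat range lay almost inside the chow range, whose lowest mice had no counterpart on high fat. Within generation labels the change of Cyp3a11 was 1.00 in G11L1 and 1.86 in G11L2 mice, that of Scd1 1.88 and 2.53, that of Slc39a5 2.66 and 2.87, and that of Sult5a1 -3.42 and -3.34.

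**Figure D1:**
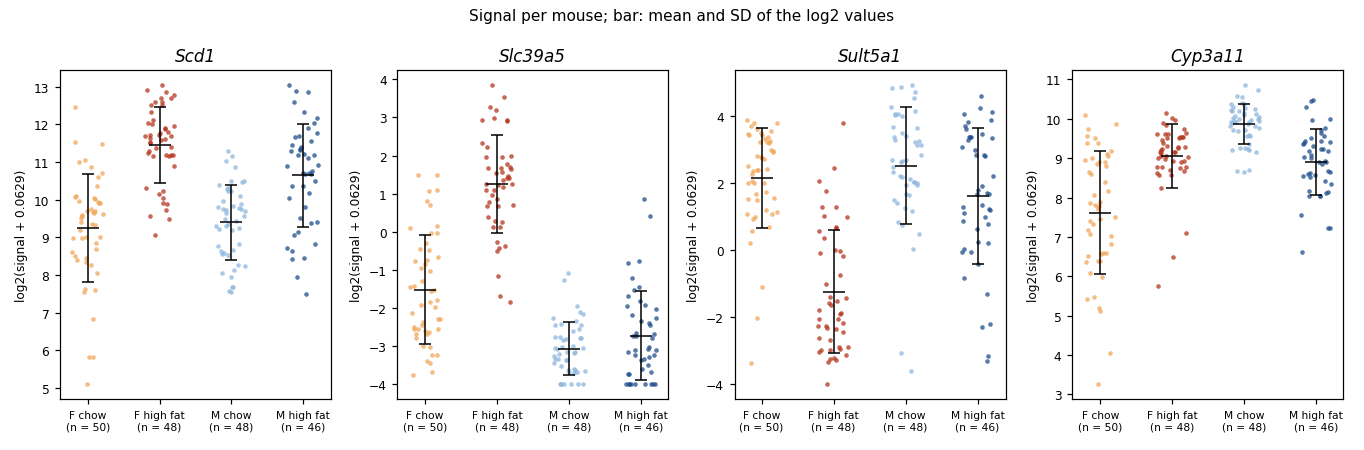
Signal of Scd1, Slc39a5, Sult5a1 and Cyp3a11 in each mouse on a log2(signal + 0.0629) scale, by sex and diet (points: mice; bar: mean and SD of the log2 values). Slc39a5 and Cyp3a11 were higher and Sult5a1 lower in high fat than in chow F mice, with overlapping ranges, while Cyp3a11 was lower in high fat than in chow M mice.

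RNA of fatty acid synthesis enzymes rose in F mice on high fat, though not of all. Of 14 tested members 8 were called higher and 0 lower (1 lower without the 10 mice least alike to the others), with a median change of 0.51. Beside Scd1, the called members included Scd2, a related desaturase, with 0.662 to 3.39 on chow (median 1.54) and 1.30 to 40.6 on high fat (median 2.50). Scd2 rose by 1.00 ± 0.18 (adjusted p = 5.45e-06), and Acacb, the mitochondrial acetyl-CoA carboxylase, rose by 0.83 ± 0.16. Fasn, the fatty acid synthase, was picked here after its values were seen: its signal was 73.9 to 576 on chow (median 214) and 42.4 to 825 on high fat (median 201). Its change of 0.04 ± 0.18 did not pass the test (adjusted p = 0.873). Across mice of 1 diet, Scd1 and Fasn nonetheless varied together. Pearson's r of the log2 signals was 0.71 on chow and 0.66 on high fat (Spearman's rho 0.66 and 0.73), with a permutation p of 1e-05 for each r and rho, the smallest that 100000 resamples can give, and 4e-05 adjusted over 8 relations. Without the 2 mice farthest from the Scd1 median r was 0.68 and 0.65, and within generation labels it ran from 0.61 to 0.73.

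Genes that lengthen and desaturate fatty acids were called higher in 7 of 12 cases and lower in 0, with a median of 0.42. Fads2, the delta-6 desaturase that starts the synthesis of long polyunsaturated fatty acids, had 46.4 to 141 on chow (median 81.3) and 61.0 to 296 on high fat (median 163). Only part of the high fat range was shared with chow, and Fads2 rose by 0.96 ± 0.08 (adjusted p = 1.15e-16). The elongases Elovl2 (0.68 ± 0.08), Elovl5 (0.65 ± 0.10) and Elovl7 (0.98 ± 0.15) rose as well.

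Of 16 genes of triglyceride synthesis and lipases, 6 were higher, 1 was lower and 9 were not called (median 0.09). Mogat1 (chr1:78510991-78538173), which joins a fatty acid to monoacylglycerol, had a signal of 0.04 to 1.75 on chow (median 0.254) and 0.268 to 7.28 on high fat (median 1.98). All 48 high fat mice were above the chow median, although the ranges overlapped, and Mogat1 rose by 2.66 ± 0.19 (adjusted p = 7.77e-21). Pnpla5 and Pnpla3, lipid droplet proteins of the patatin-like phospholipase family, rose by 2.20 ± 0.27 and 2.00 ± 0.33. Mgll, the monoacylglycerol lipase, rose by 0.36 ± 0.07. After median-of-ratios rescaling 10 of the 16 were higher and 0 lower, and after quantile normalization 11 and 0.

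Of 13 tested genes of lipid droplet proteins, 10 were higher and 0 lower (median 0.40). Plin1 and Cidea, the droplet proteins best known from fat cells, were at a median of 0 on chow and were too low to test. Cidec, which drives fusion of droplets, had 0.101 to 1.38 on chow (median 0.395) and 0.268 to 15.4 on high fat (median 1.88). It rose by 2.10 ± 0.22 (adjusted p = 2.53e-13), with 46 of 48 high fat mice above the chow median. The droplet coat proteins Plin4 (1.72 ± 0.20) and Plin3 (0.38 ± 0.06) and the droplet-forming Fitm2 (0.59 ± 0.07) rose too.

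Genes of fatty acid uptake and of PPAR gamma action were higher in 11 of 14 cases and lower in 1 (median 0.49). Fabp2, an intracellular fatty acid carrier, had 4.29 to 25.8 on chow (median 11.7) and 15.2 to 51.6 on high fat (median 25.8), and all 48 high fat mice exceeded the chow median. Fabp2 rose by 1.13 ± 0.08 (adjusted p = 9.74e-21). The fatty acid transporter Cd36 rose by 0.52 ± 0.08, and the receptor Pparg itself rose by 0.66 ± 0.12. Slc27a5, which activates bile acids and long-chain fatty acids, was the lower member and fell by 0.33 ± 0.05 on the log2 scale.

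RNA of fatty acid oxidation and ketogenesis genes rose as a broad set in F mice. Of 34 genes 24 were higher and 0 lower, with a median of 0.28 against -0.04 over all genes. Median-of-ratios rescaling gave 29 higher and 0 lower. Crat, which moves acetyl groups between carnitine and CoA, had 4.87 to 30.1 on chow (median 12.1) and 13.9 to 38.9 on high fat (median 26.1). All 48 high fat mice were above the chow median, and Crat rose by 1.06 ± 0.09 (adjusted p = 1.04e-16). Vnn1, a pantetheinase known as a PPAR alpha target, had 1.25 to 48.6 on chow (median 10.4) and 13.0 to 54.0 on high fat (median 29.4) and rose by 1.56 ± 0.17. The acyl-CoA thioesterase Acot2 rose by 1.03 ± 0.11 and the peroxisomal thiolase Acaa1b by 0.82 ± 0.09. Sequence words of 100 bases shared with other genes made up 17.1% of Acot2 and 19.3% of Acaa1b, so reads could be split among relatives there.

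In M mice the same list gave 5 higher and 5 lower members, with a median of 0.02, where 11.4% of all genes were called higher and 39.9% lower. The F minus M difference in diet change was called in 17 of the 34 genes, each higher in F, against 8.38% of all genes tested. With median-of-ratios rescaling it was called in 9, with quantile normalization in 14, in G11L1 mice alone in 13 and in G11L2 mice alone in 2. Those settings called 4.17%, 4.22%, 3.73% and 0.365% of all genes. Crat changed by 0.05 in M mice, and the difference was 1.01 (adjusted p = 1.03e-06). Vnn1 rose by 1.55 in M mice, a difference of 0.02 that was not called (adjusted p = 0.984).

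**Figure D2:**
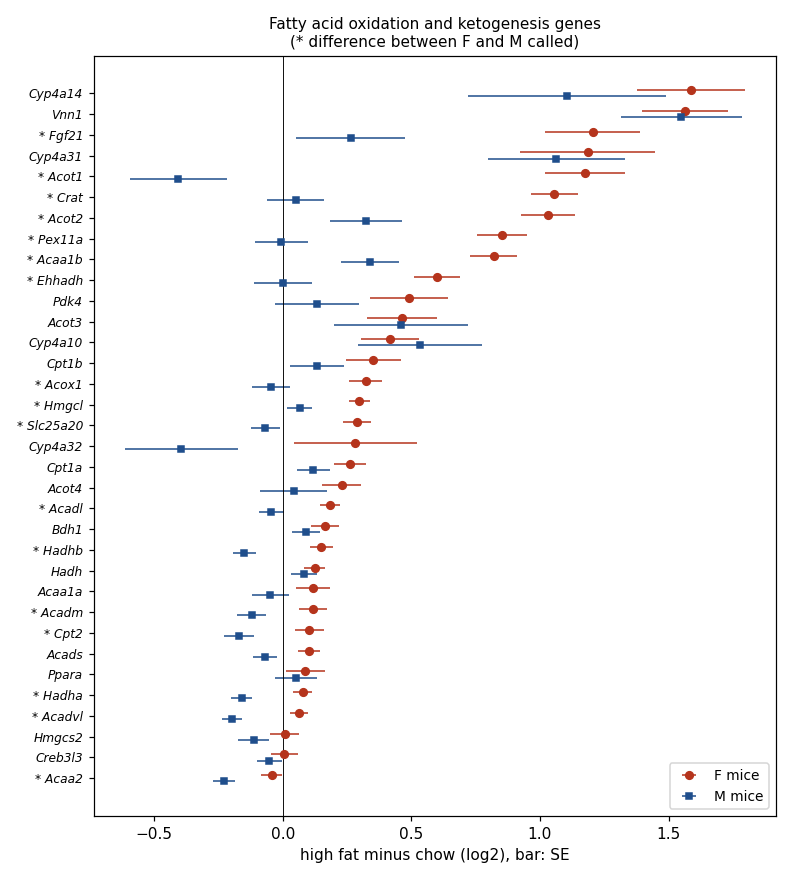
Diet change (high fat minus chow, log2, bar: SE) of the 34 fatty acid oxidation and ketogenesis genes in F mice (circles) and M mice (squares), ordered by the change in F mice. The 17 genes marked with * had a called F minus M difference, and in each the F value lay above the M value.

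RNA of cholesterol synthesis genes fell in F mice on high fat. The mevalonate pathway had 0 higher and 6 lower of 9 genes (median -0.91), and the steps from squalene to cholesterol had 0 higher and 11 lower of 12 (median -0.62). The mevalonate counts were the same after both rescalings, and quantile normalization left 9 of the 12 later genes lower. Idi1, the isopentenyl diphosphate isomerase (chr13:8885501-8892451), had 12.1 to 164 on chow (median 42.2) and 2.31 to 31.1 on high fat (median 13.5). All 48 high fat mice were below the chow median, and Idi1 fell by 1.73 ± 0.15 on the log2 scale (adjusted p = 1.04e-16). Msmo1, the methylsterol monooxygenase (chr8:64718139-64733792), had 12.1 to 118 on chow (median 36.8) and 2.09 to 26.4 on high fat (median 12.6), again with all 48 below the chow median. Its change was -1.67 ± 0.15 (adjusted p = 8.02e-16).

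Cyp51, the lanosterol demethylase, had 13.0 to 116 on chow (median 38.1) and 2.46 to 30.7 on high fat (median 14.0) and changed by -1.51 ± 0.14. Mvk, the mevalonate kinase, changed by -1.02 ± 0.10. Hmgcs1, the synthase at the entry of the pathway, had 22.9 to 405.6 on chow (median 98.4) and 14.3 to 102 on high fat (median 41.4) and changed by -1.15 ± 0.16. Hsd17b7 and Tm7sf2, later reductases, changed by -0.66 ± 0.08 and -0.62 ± 0.08. These falls were shared by M mice: 9 of 9 and 12 of 12 members were lower there, where 39.9% of all genes were called lower and 11.4% higher. The F minus M difference was called in 1 gene of each list, against 8.38% of all genes tested. It was called in 0 after either rescaling, where median-of-ratios scaling called 4.17% of all genes and quantile normalization 4.22%. Scd1 was correlated with the squalene epoxidase Sqle on high fat (r = 0.46, permutation p = 0.00099, adjusted p = 0.00264, rho = 0.51, permutation p = 0.00018, r = 0.41 without the 2 farthest mice, 0.50 and 0.40 within the generation labels). On chow r was 0.25 (permutation p = 0.0762, adjusted p = 0.122, rho 0.21, permutation p = 0.136) and 0.11 without the 2 farthest mice.

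The promoters of 4 of these fallen genes are shown because the sterol genes moved together. They were picked for the size of the fall, but Hmgcs1 was also asked for by name. Windows run from 250 bases before to 50 after the start site and were taken from RefSeq (GRCm38.p6), 5' to 3' on the gene's strand. Capitals mark CCAAT, the box bound by NF-Y, or its reverse complement ATTGG, and the core TCACCCCAC of the sterol response element, none of which overlap here.
Idi1, chr13:8885356-8885655, plus strand: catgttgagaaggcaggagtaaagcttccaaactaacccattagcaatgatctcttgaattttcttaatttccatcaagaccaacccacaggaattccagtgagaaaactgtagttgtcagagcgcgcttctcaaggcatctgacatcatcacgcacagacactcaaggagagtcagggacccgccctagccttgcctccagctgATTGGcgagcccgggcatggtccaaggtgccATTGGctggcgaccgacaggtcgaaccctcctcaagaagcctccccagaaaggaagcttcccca
Msmo1, chr8:64733529-64733828, minus strand: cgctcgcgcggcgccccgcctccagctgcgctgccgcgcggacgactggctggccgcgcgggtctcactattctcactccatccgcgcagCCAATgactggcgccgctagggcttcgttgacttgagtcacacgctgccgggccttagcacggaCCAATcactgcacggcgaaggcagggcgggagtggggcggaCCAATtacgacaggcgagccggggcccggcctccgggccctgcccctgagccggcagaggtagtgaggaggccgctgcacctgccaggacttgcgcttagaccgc
Cyp51, chr5:4104648-4104947, minus strand: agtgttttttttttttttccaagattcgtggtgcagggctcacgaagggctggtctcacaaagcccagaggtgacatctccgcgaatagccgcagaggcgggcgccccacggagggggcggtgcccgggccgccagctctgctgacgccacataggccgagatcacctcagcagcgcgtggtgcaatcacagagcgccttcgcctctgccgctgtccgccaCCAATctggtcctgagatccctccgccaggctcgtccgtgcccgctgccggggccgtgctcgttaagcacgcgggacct
Hmgcs1, chr13:119690101-119690400, plus strand: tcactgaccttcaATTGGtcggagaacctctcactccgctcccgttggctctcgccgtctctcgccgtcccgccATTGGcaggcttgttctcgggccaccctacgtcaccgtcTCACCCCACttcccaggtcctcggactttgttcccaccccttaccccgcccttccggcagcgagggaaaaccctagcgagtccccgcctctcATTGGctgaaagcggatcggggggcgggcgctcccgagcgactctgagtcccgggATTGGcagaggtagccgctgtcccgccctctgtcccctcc
CCAAT, read on both strands, was in 15 of the 19 windows (78.9%) held for 16 of the sterol synthesis genes, against 37.5% of 13829 windows of genes tested and 37.4% of all 32851 windows. TCACCCCAC was in 1 of the 19 windows (5.26%), that of Hmgcs1, against 0.593% and 0.551%. In the Idi1 window the CCAAT matches began 45 and 14 bases before the start site. These are letter matches and no binding was measured. For fatty acid synthesis genes, CCAAT was in 9 of 14 windows (64.3%) and TCACCCCAC in 0.

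Regulators of sterol level were split, with 4 of 18 higher and 8 lower. Srebf2, which encodes SREBP2, had 10.8 to 24.8 on chow (median 16.8) and 8.41 to 15.4 on high fat (median 11.3). All 48 high fat mice were below the chow median, and Srebf2 changed by -0.57 ± 0.05 (adjusted p = 1.05e-17). Its escort protein Scap changed by -0.28 ± 0.05 and the sterol carrier Stard4 by -0.58 ± 0.08. Soat2, which esterifies cholesterol, rose by 0.24 ± 0.05.

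Lipoprotein genes were mixed, with 3 of 19 higher and 7 lower, and after quantile normalization 8 higher and 3 lower. The higher members were Apoa4 (1.51 ± 0.20), an apolipoprotein of triglyceride-rich particles, the phospholipid transfer protein Pltp (1.26 ± 0.14) and Apoc2 (0.87 ± 0.09), the activator of lipoprotein lipase. Reads of Apoa4 and Apoc2 are hard to assign, since 69.8% and 79.5% of their exon bases overlap another gene. Of the sequence words of Apoc2, 76.8% occur in other genes. The clearance receptor Lrp1 changed by -0.36 ± 0.05. Among genes of sphingolipids and phospholipids 8 of 19 were higher and 3 lower (1 lower after either rescaling). The higher ones included the phospholipase Pla2g6 (0.77 ± 0.08), the lysophospholipid acyltransferase Lpcat3 (0.41 ± 0.05) and Smpd3, a neutral sphingomyelinase, with 0.116 to 5.36 on chow (median 0.895), 0.245 to 9.07 on high fat (median 3.08) and a change of 1.38 ± 0.22.

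Genes of bile acids, amino acid breakdown, glucose production, and complement and coagulation had 0 to 2 higher members in each list and many lower ones with the deposited values. Of 25 bile acid genes 17 were lower and 0 higher (median -0.23), among them Abcb11, the bile salt export pump (-0.51 ± 0.06), the FGF receptor Fgfr4 (-0.42 ± 0.05), Cyp2c70, which makes muricholic acids (-0.59 ± 0.08), and the conjugating enzyme Baat (-0.34 ± 0.05). Of 28 genes of the urea cycle and amino acid breakdown 23 were lower and 0 higher (median -0.30). Hal, the histidine ammonia-lyase, had 44.9 to 191 on chow (median 113) and 24.3 to 131 on high fat (median 64.5) and changed by -0.77 ± 0.08. Cps1, the entry enzyme of the urea cycle, changed by -0.58 ± 0.08, Agxt by -0.75 ± 0.08 and the glutaminase Gls2 by -0.60 ± 0.09. Quantile normalization left 14 of the 28 lower and 2 higher.

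Methionine and cysteine genes were lower in 11 of 13 cases and higher in 0. Cth, which makes cysteine from cystathionine, had 50.0 to 244 on chow (median 126) and 23.5 to 104 on high fat (median 50.0). All 48 high fat mice were below the chow median and the change was -1.23 ± 0.10 (adjusted p = 1.52e-17). Bhmt, which remethylates homocysteine with betaine, had 292 to 1490.0 on chow (median 774) and 102 to 1075 on high fat (median 463) and changed by -0.82 ± 0.10. In M mice Bhmt changed by 0.09, and the F minus M difference was -0.91 (adjusted p = 1.69e-05). Gnmt and Cbs changed by -0.67 ± 0.08 and -0.49 ± 0.06. The list fell to 5 lower and 1 higher after quantile normalization.

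Of 18 genes of glucose production and fasting 10 were lower and 2 higher, against 7 lower and 5 higher after quantile normalization and 7 lower and 1 higher with coat colour added. The glucose-6-phosphatase gene G6pc had 15.9 to 185 on chow (median 87.5) and 15.7 to 153 on high fat (median 45.6) and changed by -0.81 ± 0.16, and the insulin receptor substrate Irs2 by -0.60 ± 0.12. The glucose transporter Slc2a2 changed by -0.24 ± 0.05, while the pyruvate carboxylase Pcx rose by 0.20 ± 0.05. Of 25 complement and coagulation genes 19 were lower and 0 higher, including C3 (-0.66 ± 0.07) and plasminogen, Plg (-0.34 ± 0.04). After quantile normalization 8 of these were lower and 2 higher.

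RNA of drug and steroid metabolism genes shifted gene by gene. Of 26 genes of cytochrome families 1 and 2, 14 were lower and 2 higher, and 9 lower and 3 higher after quantile normalization. Cyp1a2, which oxidizes caffeine and aromatic amines, had 64.1 to 325 on chow (median 154) and 28.9 to 158 on high fat (median 67.8) and changed by -1.16 ± 0.10 (adjusted p = 2.48e-16). Cyp2c54 had 56.9 to 298 on chow (median 146) and 1.96 to 351 on high fat (median 55.5) and changed by -1.75 ± 0.24. Cyp2c69 changed by -1.99 ± 0.30 and the olfactory-type Cyp2g1 by -1.20 ± 0.18. Of the 14 genes of the 2b and 3a families and their receptors, 1 (Cyp3a11) was higher and 4 were lower with the deposited values. Median-of-ratios rescaling gave 2 higher and 3 lower, quantile normalization 3 higher and 2 lower, and leaving out the 10 mice least alike to the others 1 higher and 2 lower. Cyp3a44, another 3a gene, had 11.2 to 310.5 on chow (median 139) and 1.51 to 229 on high fat (median 36.0) and changed by -1.84 ± 0.30. On the log2 scale Cyp3a41a fell by 1.00 ± 0.20 and Cyp3a41b fell by 1.22 ± 0.45, but 90.8% and 88.2% of their sequence words occur in other genes, so their separate values are uncertain.

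Among 14 genes of sulfotransferases and sulfate donors 6 were lower (3 after quantile normalization) and 1 higher, with Sult1b1 (-0.49 ± 0.08) and Sult2a8 (-0.75 ± 0.13) beside Sult5a1. Sult2a7, a further hydroxysteroid sulfotransferase among the most changed genes, had 0.0172 to 47.0 on chow (median 15.6) and 0 to 21.6 on high fat (median 1.12) and changed by -2.51 ± 0.51. Of 25 glucuronosyltransferases and carboxylesterases 16 were lower and 2 higher, and of 24 glutathione and NRF2 genes 8 were lower (5 after either rescaling) and 2 higher. The glutathione reductase Gsr changed by -0.28 ± 0.04 and the subunit Gclm of glutathione synthesis by -0.25 ± 0.05.

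Genes known to be higher in female liver were lower in 10 of 27 cases and higher in 4 (median -0.12). Cyp2c69 and Cyp3a44 belonged to the fallen ones, as did A1bg, a plasma glycoprotein with 3.69 to 1456 on chow (median 296), 0.711 to 1391 on high fat (median 49.1) and a change of -2.20 ± 0.42. The prolactin receptor Prlr changed by -0.54 ± 0.08. Genes known to be higher in male liver were lower in 8 of 19 cases (5 with coat colour added) and higher in 1, with Ugt2b1 (-0.61 ± 0.07), Cyp2f2 (-0.58 ± 0.11) and the oxysterol hydroxylase Cyp7b1 (-0.91 ± 0.26) lower and Cyp2d9 (1.09 ± 0.29) higher.

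The major urinary proteins, pheromone carriers secreted by the liver, had 10 of 20 genes lower and 1 higher (median -0.91). Their summed signal was a median of 1.97% of all signal on chow (0.223% to 5.55%) and 0.924% on high fat (0.0965% to 8.77%). The range was wider on high fat at both ends. Mup1 had 5.03 to 347 on chow (median 70.4) and 1.15 to 775 on high fat (median 17.6), with 41 of 48 high fat mice below the chow median, and changed by -1.82 ± 0.35. Of the sequence words of Mup1, Mup2, Mup7 and Mup14, 55.7% to 76.1% occur in other genes, so the sum is firmer than any member. In M mice 1 gene of the 20 was lower and 1 higher (median -0.08), against 39.9% and 11.4% of all genes. The F minus M difference was called in 3 of the 20, each lower in F, against 8.38% of all genes tested. It was called in 0 in G11L1 and 0 in G11L2 mice alone. Those settings called 3.73% and 0.365% of all genes, so counts of 0 among 20 genes say little.

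Among growth hormone, oestrogen and insulin-like signalling genes 9 of 22 were lower and 1 higher. Stat5b, the transducer of growth hormone pulses, had 13.6 to 23.1 on chow (median 16.9) and 9.35 to 20.1 on high fat (median 13.2) and changed by -0.37 ± 0.04 (adjusted p = 3.01e-13). The receptors Egfr and Lifr changed by -1.10 ± 0.18 and -0.66 ± 0.13. Hepatokine genes were divided, 6 of 20 higher and 6 lower. Fgf21, a fasting and fat-feeding hormone, had 0.0118 to 2.80 on chow (median 0.294) and 0.230 to 2.72 on high fat (median 0.876) and rose by 1.21 ± 0.18. Fetub and Inhba changed by -0.87 ± 0.13 and -0.74 ± 0.11.

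Beside Slc39a5, the zinc list had 7 of 12 genes lower, including the manganese exporter Slc30a10 (-0.70 ± 0.11) and Slc39a8 (-0.22 ± 0.04), and 1 higher. After median-of-ratios rescaling 4 were lower, and after quantile normalization 4 were lower and 3 higher. Of 14 iron genes 6 were lower and 3 higher. Bmp6, which drives hepcidin, changed by -0.52 ± 0.08 and Tfr2 by -0.25 ± 0.04, while hemojuvelin (Hfe2) rose by 0.33 ± 0.07.

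**Figure D3:**
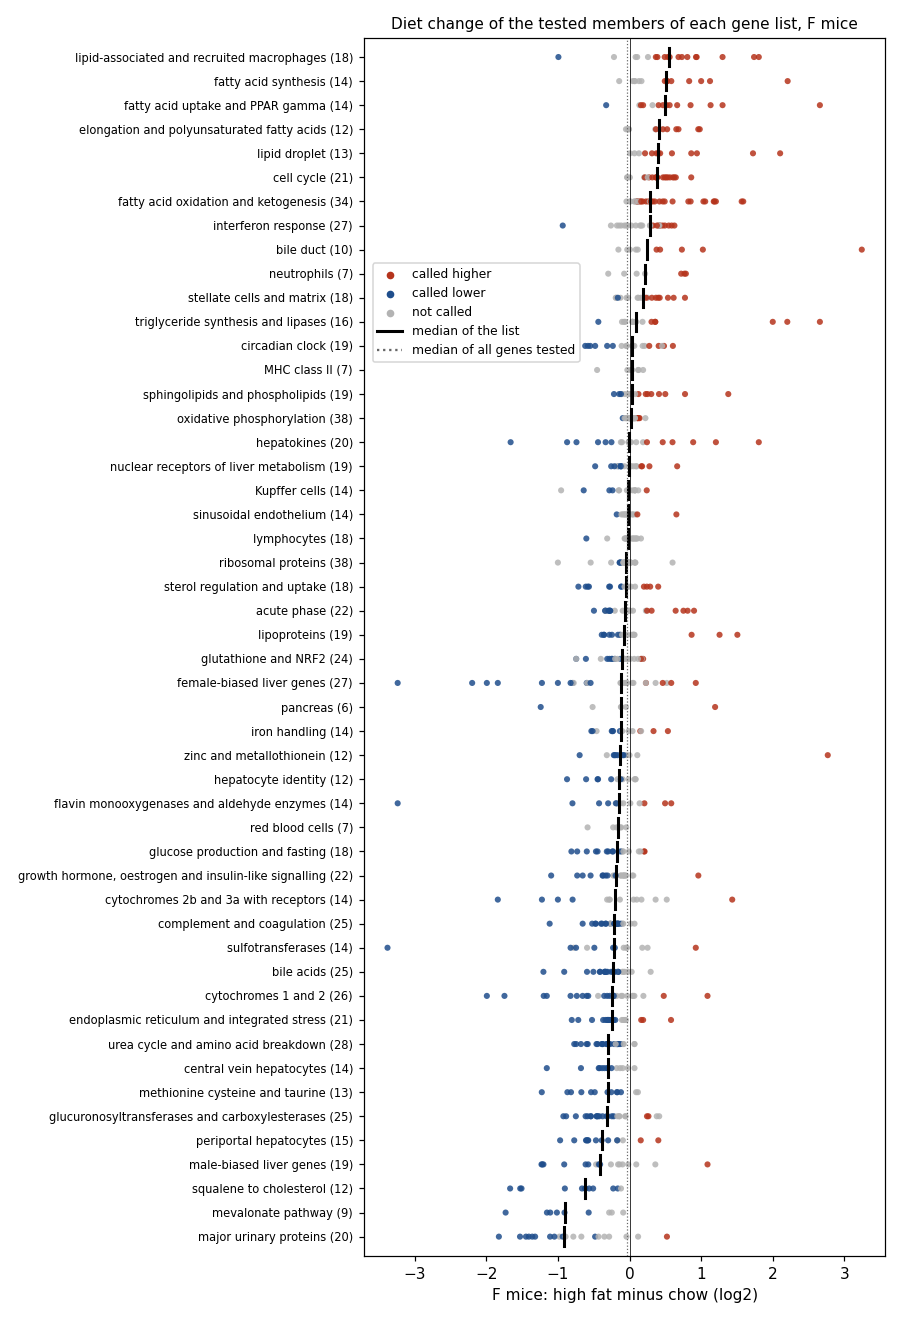
Diet change in F mice (high fat minus chow, log2) of each tested member of 50 gene lists, ordered by the list's median (black bar); red points were called higher, blue lower and grey not called. Fat-handling, macrophage and cell cycle lists lie at the top and sterol synthesis and major urinary proteins at the bottom, around an all-gene median of -0.04 (dotted line).

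Markers of cells other than hepatocytes moved with diet too. In whole liver, fewer cells of a type and less RNA per cell cannot be told apart. Of 18 genes of lipid-associated and recruited macrophages, cells that gather around fat-laden hepatocytes, 13 were higher and 1 lower (median 0.55). Gpnmb, a glycoprotein of such macrophages, had 0 to 0.590 on chow (median 0.0639) and 0.0278 to 6.02 on high fat (median 0.397) and rose by 1.80 ± 0.26. The elastase Mmp12 rose by 1.74 ± 0.22 and the tetraspanin Cd63 by 0.94 ± 0.14. Atp6v0d2, a proton pump subunit, was the lower member (-0.99 ± 0.16). The summed signal of the list took a median of 0.0193% on chow (0.0126% to 0.0936%) and 0.0293% on high fat (0.0101% to 0.112%), and no member was at 0 in all F mice.

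Kupffer cell genes had 1 higher and 3 lower of 14 (1 lower after quantile normalization) and a summed share of 0.0856% on chow and 0.0888% on high fat. Cd163, a scavenger receptor of resident macrophages, changed by -0.64 ± 0.15. Of stellate cell and matrix genes 8 of 18 were higher and 1 lower, with the collagens Col1a1 (0.77 ± 0.14), Col4a1 (0.42 ± 0.07) and Col4a2 (0.40 ± 0.07), and the summed share was 0.0333% and 0.0393%. Of 10 bile duct genes 5 were higher and 0 lower, with Spp1 (0.73 ± 0.13), Krt23 (1.02 ± 0.24) and Epcam (0.43 ± 0.12). Ly6d, whose larger rise is given below, was also among the higher members. The summed share, which includes Ly6d, was 0.00885% and 0.0138%. Neutrophil genes had 3 of 7 higher and lymphocyte genes 0 of 18 higher and 1 lower. Red blood cell genes had 0 of 7 called.

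Of 27 interferon response genes 9 were higher and 1 lower (median 0.28), with the chemokines Cxcl10 (0.63 ± 0.14) and Cxcl9 (0.59 ± 0.15). MHC class II genes had 0 of 7 called. Acute phase genes were divided, 6 of 22 higher and 7 lower (2 lower after quantile normalization): the interleukin 1 receptor antagonist Il1rn rose by 0.64 ± 0.11, and the fibrinogen chains Fga, Fgb and Fgg changed by -0.28, -0.27 and -0.30.

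Cell cycle genes were higher in 16 of 21 cases and lower in 0 (median 0.38). Cdk1, the mitotic kinase, had 0.0469 to 0.345 on chow (median 0.121) and 0.0716 to 1.00 on high fat (median 0.205) and rose by 0.65 ± 0.11, and the replication helicase subunit Mcm6 rose by 0.62 ± 0.11. Signals of this list were low in both diets. In M mice 17 of 21 were higher, against 11.4% of all genes. The F minus M difference was called in 0 of 21 genes, against 8.38% of all genes tested.

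Endoplasmic reticulum stress genes were lower in 14 of 21 cases and higher in 3 (median -0.25). The chaperones Hsp90b1 and Hyou1 changed by -0.31 ± 0.04 and -0.52 ± 0.08, Sdf2l1 by -0.72 ± 0.12 and the stress kinase-like Trib3 by -0.81 ± 0.11. Markers of both ends of the liver lobule were lower: 9 of 14 central vein genes against 0 higher, with Rgn (-0.38 ± 0.06) and Oat (-0.68 ± 0.14), and 10 of 15 periportal genes against 2 higher, with Ctsc (-0.61 ± 0.07) and Etnppl (-0.97 ± 0.14). Hepatocyte identity genes were lower in 6 of 12 cases, including Hnf4a (-0.26 ± 0.04) and Ahsg (-0.44 ± 0.07). The clock genes had 4 of 19 higher and 6 lower, with Nr1d1 at -0.48 ± 0.10 and Clock at -0.31 ± 0.08. The time of day of collection was not given in the sources used here.

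Ribosomal protein genes were nearly level in F mice, with 4 of 38 lower and 0 higher (median -0.05), 9 lower without the 10 least alike mice, 0 after quantile normalization and 1 after median-of-ratios rescaling. Oxidative phosphorylation genes had 4 of 38 higher and 1 lower (median 0.02), but 13 higher after median-of-ratios rescaling and 26 higher after quantile normalization. Cox4i1 rose by 0.11 ± 0.04. Sdha changed by -0.10 ± 0.03 with the deposited values and by 0.026 after quantile normalization (adjusted p = 0.456). The F minus M difference was called in 19 of the ribosomal genes and 16 of the oxidative phosphorylation genes, each higher in F. Of all genes tested 8.38% were called, and 82.9% of those calls were higher in F. After median-of-ratios rescaling the list counts were 3 and 4, and after quantile normalization 2 and 5. In G11L1 mice alone they were 13 and 5, and in G11L2 mice alone 0 and 0. Those 4 settings called 4.17%, 4.22%, 3.73% and 0.365% of all genes, so 0 in G11L2 mice says little.

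Several of the most changed genes stood outside the lists or are not known for a role in liver. Ly6d (chr15:74762056-74763620), a small surface protein counted here among bile duct markers, gave the largest rise of the genes named. Its signal was 0.0337 to 2.47 on chow (median 0.149) and 0.358 to 19.1 on high fat (median 2.48), all 48 high fat mice were above the chow median, and it rose by 3.24 ± 0.26 (adjusted p = 8.9e-19). In M mice it rose by 2.90, and the difference of 0.34 was not called. Gprc5b (chr7:118972047-118995211), an orphan G protein-coupled receptor, had 0.0179 to 0.324 on chow (median 0.0714) and 0.0725 to 9.13 on high fat (median 1.16) and rose by 2.81 ± 0.25. The secreted Wfdc2 had 0.159 to 3.74 on chow (median 0.826) and 1.11 to 14.5 on high fat (median 3.07) and rose by 1.90 ± 0.20. Osbpl3, an oxysterol-binding-protein relative (1.92 ± 0.23), the semaphorin Sema5b (2.00 ± 0.25), the exonuclease Pnldc1 (1.94 ± 0.18), the acid phosphatase Acpp (1.91 ± 0.34), the nicotinic receptor subunit Chrna4 (1.90 ± 0.34) and the keratin Krt20 (1.99 ± 0.44) completed the 15 largest rises.

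Among falls, Htra4 (chr8:25024929-25038962), a secreted serine protease, had 0.137 to 1.65 on chow (median 0.600) and 0 to 0.471 on high fat (median 0.0945). All 48 high fat mice were below the chow median, and it changed by -1.90 ± 0.14 (adjusted p = 5.61e-20). Another gene overlaps 32.9% of the Htra4 exon bases. Ptgds (chr2:25466709-25470046), the lipocalin-type prostaglandin D synthase, had 0.0343 to 2.79 on chow (median 0.733) and 0 to 0.431 on high fat (median 0.0863), again with all 48 below the chow median, and changed by -2.22 ± 0.19. The glutamate receptor subunit Grid1 (-1.95 ± 0.20), the membrane protein Prom2 (-1.85 ± 0.37) and the transporter Slc22a28 (-1.70 ± 0.35) were the other falls outside the lists. Other genes hold 37.0% of the sequence words of Slc22a28 and 35.4% of those of Cyp2c69.

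Diet acted differently on F and M mice in 1216 genes (8.38% of genes tested), of which 177 differed by at least 1.5-fold. The change was higher in F in 1008 (82.9%) and lower in 208, but this balance came with the deposited scaling. Median-of-ratios rescaling called 605 genes, 302 higher in F and 303 lower, of which 499 were among the 1216. The call counts also differed between generations, with 541 in G11L1 mice alone and 53 in G11L2 mice alone. Across genes, the F and M changes had a Pearson's r of 0.63 over 14505 genes with no mice in common, and genes are not independent replicates. In 90 genes both sexes were called with opposite signs.

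Cyp3a11 was called in both sexes. In M mice it ran from 400 to 1867 on chow (median 977) and from 98.5 to 1425 on high fat (median 505), so the M change was -0.99 ± 0.20 where F mice rose. The difference was 2.43 ± 0.28 (adjusted p = 2.65e-11), and it was called within G11L1 (1.78) and G11L2 mice (3.07). Sult1e1, the oestrogen sulfotransferase, had the largest difference of the genes named. In F mice its signal was 0.0921 to 30.4 on chow (median 2.70) and 0.0270 to 39.1 on high fat (median 1.77), a change of -0.78 ± 0.39 that was not called (adjusted p = 0.113). In M mice it rose by 2.80 ± 0.38, and the difference was -3.58 ± 0.53 (adjusted p = 2.33e-07), being -4.73 among G11L1 mice and -2.40 among G11L2 mice, where the call was lost (adjusted p = 0.075).

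Csad, which makes hypotaurine on the way to taurine, changed by 0.09 ± 0.19 in F mice and by -2.03 ± 0.19 in M mice, a difference of 2.12. In M mice its median was 32.2 on chow and 7.27 on high fat, and in F mice 6.70 and 6.25. Acot1, a cytosolic acyl-CoA thioesterase, had 2.28 to 32.5 on chow (median 9.17) and 6.50 to 58.9 on high fat (median 20.1) in F mice and rose by 1.18 ± 0.16, against -0.41 in M mice. The elongase Elovl3 changed by 0.36 in F mice (adjusted p = 0.068) and by -1.24 in M mice, a difference of 1.60. The change of Slc39a5 in M mice was 0.36 (adjusted p = 0.212), with 0 to 0.411 on chow and 0 to 1.74 on high fat, and the difference was 2.41 ± 0.34. Lower in F were also Sult5a1 (-2.49), Sult2a7 (-2.21), A1bg (-2.21), Ptgds (-1.91), Cyp2c54 (-1.80) and the membrane protein Lrtm1 (-1.62). Higher in F were Gprc5b (1.75), Acpp (1.63) and Cyp2d9 (1.43). Of the 15 differences named in these paragraphs, 6 lost their call in G11L1 mice alone and 8 in G11L2 mice alone. Sult5a1 was among the former, with -2.08 (adjusted p = 0.0791), against -2.90 in G11L2 mice (adjusted p = 0.0352). Csad, Cyp2c54, Cyp3a11, Ptgds and Slc39a5 were called in both.

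**Figure D4:**
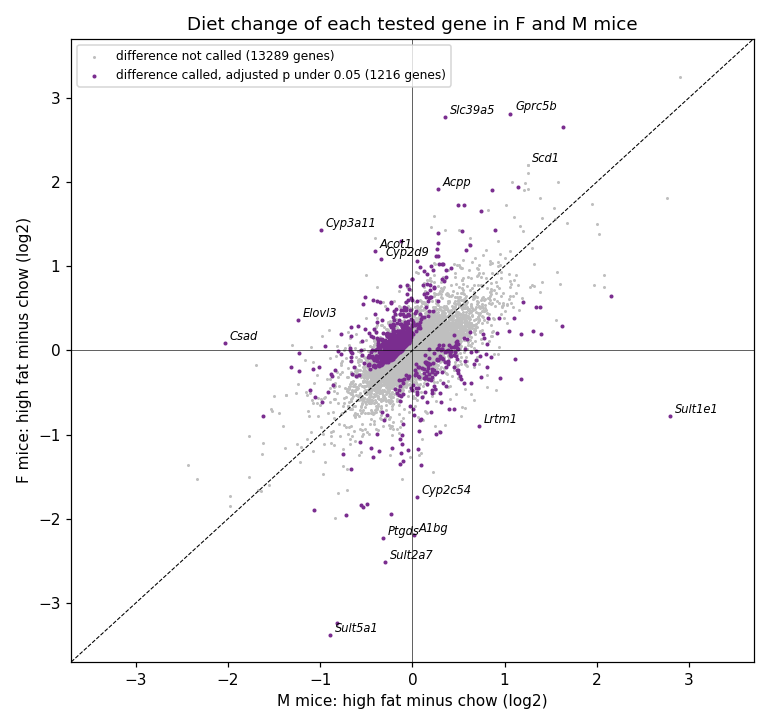
Diet change (high fat minus chow, log2) of each of 14505 genes in F mice (vertical) against M mice (horizontal), with the 1216 genes of called F minus M difference in purple and equality as the dashed line. Cyp3a11 rose in F and fell in M mice, Sult1e1 rose in M mice, and Sult5a1 and A1bg lie well below equality.

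The spread between mice of 1 diet differed in 45 of 14505 genes (0.310%), 37 with more spread on high fat and 8 with less. With no adjustment 1526 genes had a p under 0.05. Spread is the absolute deviation of a log2 value from the median of its diet group, so the unit below is again log2. Gprc5b, low on chow, was low in some and raised in other high fat mice. Its log2 spread was larger on high fat by 1.19 ± 0.14 (adjusted p = 2.05e-09). Its chow signals, 0.0179 to 0.324, were of the order of the constant added before taking log2. That constant narrows the log2 spread of such low signals, so the chow spread is understated. How much of the difference comes from this was not tested. With rank scores, where 0 genes were called, the spread difference of Gprc5b was -0.0050. On the log2 scale Cyp2c54 followed with 0.78 ± 0.16, Anxa2, a membrane-binding annexin, with 0.33 ± 0.07, and the mitochondrial peptidase Xpnpep3 with 0.15 ± 0.03. Anxa2 had 1.32 to 3.97 on chow (median 2.33) and 2.15 to 15.5 on high fat (median 3.62), so a few high mice set its upper end.

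Less spread on high fat was called for Slc22a28 (-1.22 ± 0.22), Cyp3a11 (-0.74 ± 0.16), the imprinted RNA Meg3 (-0.67 ± 0.16), the neurotrophin receptor Ntrk2 (-0.91 ± 0.22) and the G protein regulator Rgs16 (-0.47 ± 0.12). Slc22a28 had 0 to 5.93 on chow (median 0.276) and 0 to 2.80 on high fat (median 0.0585), so its narrower spread came with a fall toward 0. Rgs16 had 1.65 to 101 on chow (median 30.5) and 7.82 to 75.3 on high fat (median 28.1), with a change in level of -0.13 that was not called (adjusted p = 0.624). The number of spread calls changed with the mice and the scale used. It was 16 without the 10 mice least alike to the others (9 of them on high fat), 2 in G11L1 and 6 in G11L2 mice alone. Leaving out mice because they are unlike the others can itself lower the high fat spread, and each generation alone has fewer mice. These counts therefore cannot show how many mice the calls rest on. Of the 9 genes named here for spread, 8 lost the call in G11L1 and 7 in G11L2 mice, and Gprc5b was called in both. The spread difference of Cyp3a11 was -0.42 in G11L1 (adjusted p = 0.630) and -0.89 in G11L2 mice (adjusted p = 0.353).

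**Figure D5:**
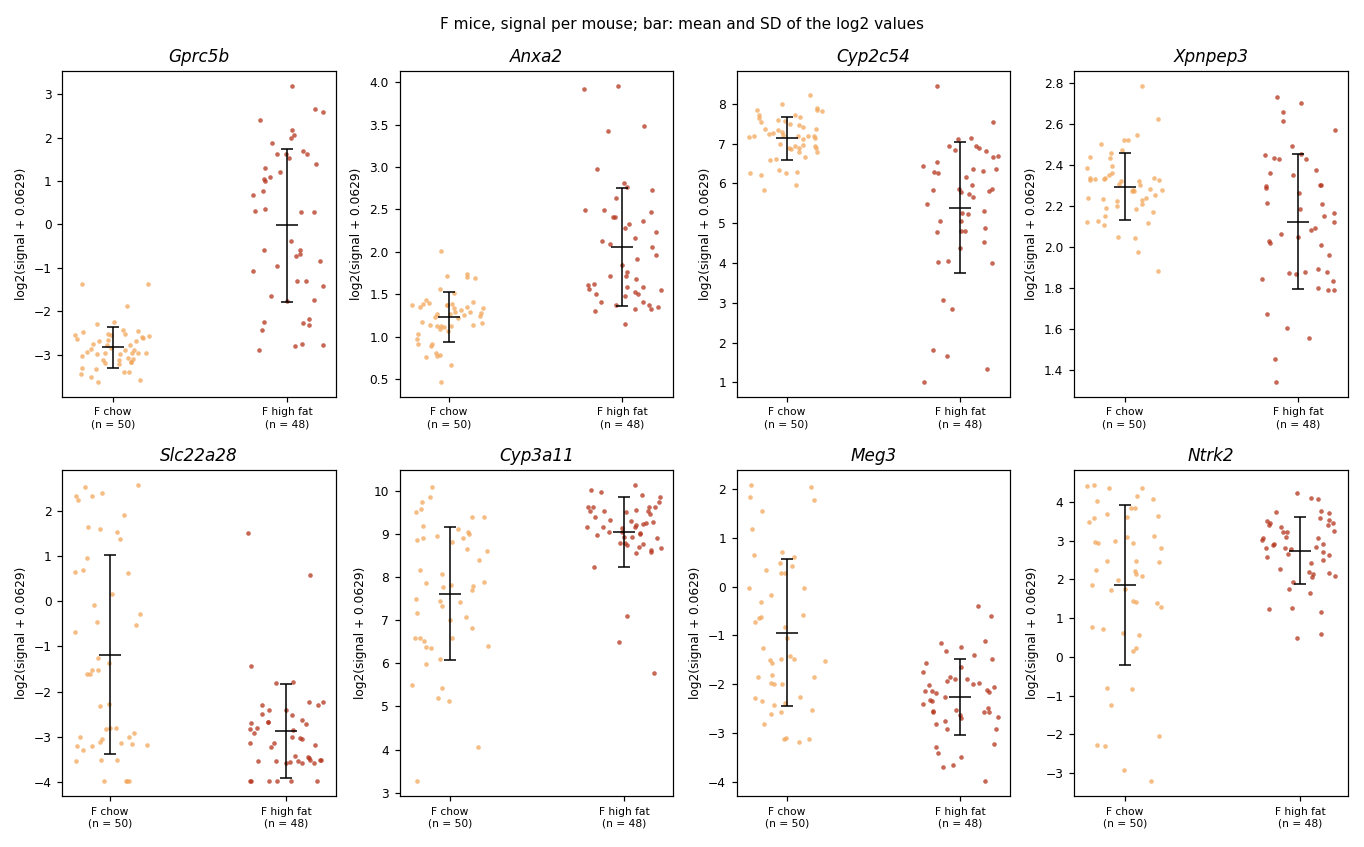
Signal per F mouse of 8 genes whose spread differed between diets, on a log2(signal + 0.0629) scale (points: mice; bar: mean and SD of the log2 values). Gprc5b, Anxa2, Cyp2c54 and Xpnpep3 are wider on high fat, and Slc22a28, Cyp3a11, Meg3 and Ntrk2 are narrower.

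Droplet and macrophage genes were also set against each other across mice. Cidec and Trem2, a receptor of lipid-associated macrophages, had an r of 0.33 on high fat (permutation p = 0.0194, adjusted p = 0.0389, rho 0.29, permutation p = 0.0441) and of 0.17 on chow (permutation p = 0.237, adjusted p = 0.271, rho 0.14, permutation p = 0.316). Without the 2 mice farthest from the Cidec median the high fat value was 0.29, and within generation labels it was 0.19 in G11L1 and 0.44 in G11L2 mice. Cidec and Gpnmb had an r of 0.20 on high fat (permutation p = 0.167, adjusted p = 0.223, rho 0.13, permutation p = 0.381) and 0.06 on chow (permutation p = 0.664, adjusted p = 0.664, rho 0.09, permutation p = 0.534), and neither passed the test.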

How the data were processed

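Liver RNA of 98 F and 94 M Diversity Outbred mice was analysed. The authors deposited a signal for 21454 genes in each mouse, normalized to the mouse's upper quartile, as the title of the deposited table states. The submitters' processing notes list CASAVA 1.8.0 beside the build names mm10 and GRCm38. The sources used here do not state which aligner, counting tool or annotation served, nor how the 2 technical repeats of a mouse were joined. Of the low values in F mice, 78.2% to 82.5% lay within 0.1 of a whole read, too few for a test on recovered reads. Depth is an estimate from these steps, and precision rests on the number of mice.

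Gene IDs were matched to GENCODE M21 (21022 of 21454 had an entry). The pseudocount, 0.0629, is 1/100 of the median upper quartile. limma 3.58.1 in R 4.3.3 with a mean-variance trend fitted the F mice with diet and generation label. A fit of all 192 mice in 4 groups gave the M changes and the F minus M difference, so M counts come from a fit with a pooled spread. Spread was fitted on absolute deviations from the diet group's median. The code was tested on simulated data. Alternatives were other pseudocounts, filters, scalings, weights, covariates and subsets of mice.

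Genes named are the 15 largest called changes in each direction, 4 given genes, up to 4 called members with the smallest p in each list, 8 differences per direction for F against M and 5 per direction for spread. Genes of the first and the last kinds had a mean of at least 10 pseudocounts, and predicted genes and pseudogenes were passed over. Fasn, Sqle, Trem2 and members too low to test are exceptions, chosen after their values were seen. A few genes that this rule picks are not reported here. Members and lists were chosen with earlier results of these data known. Mice were treated as independent.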

Additional observations from a re-analysis of the deposited data

Results flagged for a closer look

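The diet change differed between F and M mice, by limma's test of the difference over 192 mice (adjusted p under 0.05), in 49 of the genes named. Differences are F minus M in log2 units. All were called in the deposited scaling, and the causes were not tested.

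The change was higher in F mice for Cyp3a11 (2.43), Slc39a5 (2.41), Csad (2.12), Gprc5b (1.75), Acpp (1.63), Elovl3 (1.60), Acot1 (1.58) and Cyp2d9 (1.43). Genes of fat and sterol handling followed: Plin4 (1.17), Mogat1 (1.02), Crat (1.01), Fgf21 (0.94), Pparg (0.72), Acot2 (0.71), Pla2g6 (0.66), Pltp (0.63), Fitm2 (0.54), Elovl2 (0.53), Acaa1b (0.48), Tm7sf2 (0.36), Chkb (0.36), Soat2 (0.35), Plin3 (0.28) and Lpcat3 (0.24). Wfdc2 (1.04), Pnldc1 (0.80), Cox4i1 (0.25) and Cox6c (0.24) completed this direction. Other genes overlap 57.6% of the exon bases of Chkb. Tm7sf2, a sterol synthesis gene, fell in both sexes and less so in F mice. Its difference was not called after median-of-ratios rescaling or quantile normalization. Of 13 lipid droplet genes 6 had a called difference, and 3 after either rescaling. Of all genes 8.38% were called, and 4.17% and 4.22% after the rescalings.

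The change was lower in F mice for Sult1e1 (-3.58), Sult5a1 (-2.49), Sult2a7 (-2.21), A1bg (-2.21), Ptgds (-1.91), Cyp2c54 (-1.80) and Lrtm1 (-1.62). Mup1 (-1.33), Prom2 (-1.32), Cyp3a44 (-1.28), Atp6v0d2 (-1.25), Grid1 (-1.23), Mup14 (-1.22), Bhmt (-0.91), Cyp3a41a (-0.89), Cyp2g1 (-0.84), Htra4 (-0.83), Cd36 (-0.82), Cyp1a2 (-0.71), Sult1b1 (-0.54) and Cth (-0.48) followed. Cd36 rose in both sexes, by 0.52 in F and 1.34 in M mice.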

How the results depend on the processing

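The count of genes called by diet in F mice, 5203, lay between 4467 and 5504 in the settings that used mice of both generations. In G11L1 mice alone it was 2526 (768 higher, 1758 lower) and in G11L2 mice alone 2932 (864 higher, 2068 lower), with fewer mice. Median-of-ratios rescaling gave 2420 higher and 2307 lower genes, and quantile normalization 2251 higher and 2372 lower. A filter at a mean of 10 pseudocounts gave 1071 higher. The count at 1.5-fold, 483, was 233 with a pseudocount 10 times larger and 321 with that filter. Rank scores have no fold, so no such count was made. The F minus M count, 1216, was 605 with median-of-ratios rescaling, 612 with quantile normalization, 541 in G11L1 and 53 in G11L2 mice alone.

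The spread count, 45, was 135 and 12 with a pseudocount 10 times larger and smaller, 81 with no filter, 12 with the stricter filter, 16 without the 10 least alike mice, 2 in G11L1 and 6 in G11L2 mice. With rank scores limma called 0. The spread difference of Gprc5b was -0.0050 with rank scores, and the change of Sdha was 0.026 with quantile normalization. The causes were not tested. Of the 186 genes picked for F diet change and reported, 5 lost their call under median-of-ratios rescaling, 12 under quantile normalization (Sdha among them), 31 in G11L1 and 18 in G11L2 mice alone.

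F and M mice share mouse numbers. The 92 same-number pairs had correlations of -0.177 to 0.317 (median 0.0141), with 11 over 0.1. Over all pairings of F with M mice the median was -0.00339. In 4 of the 92 pairs the F mouse correlated best with the M mouse of its own number. Whether same-number mice were related was not tested. With the number as a replicate block the F minus M count was 1312. The F diet groups share no number, so no paired analysis of diet was possible.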
